A study of Mus musculus with 23 samples.

Results

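Rn7sk, the gene of the 7SK small nuclear RNA, was 1 of 3826 genes on a mouse amplicon panel and took the largest share of counts in each of 23 mammary tumours. It was chosen by name, because its share of the libraries was known to be high and because other panel genes were known to follow it, so the size of its share and its correlations with other genes are given as a description, with no test. Differences between the treatment groups were tested. Of the tumours, 12 came from mice given abemaciclib, an inhibitor of the kinases CDK4 and CDK6, at 90 mg/kg daily by gavage, and 11 from mice given vehicle, called control. In both groups doxycycline was started at 6 weeks of age, mice were randomized once tumours had formed, and tissue was frozen after the 12th dose. No source used here gives the strain, the transgene or whether tumours share an animal. The p-values set a difference between groups against the spread between these tumours, which may be technical. They treat each tumour as independent, and could be too small if tumours share an animal.

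7SK is a short noncoding RNA made by RNA polymerase III. It is the scaffold of a ribonucleoprotein in which LARP7 and MEPCE protect the RNA, and in which HEXIM proteins hold P-TEFb, the pair of the kinase CDK9 and cyclin T, inactive. P-TEFb released from this particle phosphorylates paused RNA polymerase II and its partners and lets transcription proceed. Most work on this particle was done in human cells.

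Mouse Rn7sk (ENSMUSG00000065037.1) lies on chromosome 9 from 78175303 to 78175633 on the minus strand (mm10, GENCODE M21) as a single exon of 331 bases with a GC content of 58.0%. It sits between genes and inside none: the lincRNA C920006O11Rik starts 281 bp away on the other strand, and Ick, which encodes a protein kinase, ends 3196 bp away. The first 100 bases (chr9:78175534-78175633) are shown because they cover most of the stretch that in human 7SK forms the HEXIM1-binding hairpin with its GATC motifs, here in capitals at positions 13, 42 and 64 from the 5′ end. The last 60 bases, from 272 to 331 (chr9:78175303-78175362), are shown with the closing run of 3 T in capitals, the kind of run at which RNA polymerase III stops.
The gene strand is printed, from GENCODE M21, 5′ to 3′.
Rn7sk 5′ part: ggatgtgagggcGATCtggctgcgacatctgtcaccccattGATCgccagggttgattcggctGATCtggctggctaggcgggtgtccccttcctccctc
Rn7sk 3′ part: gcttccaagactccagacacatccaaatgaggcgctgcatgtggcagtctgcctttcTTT

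The panel read 1 short amplicon per gene, and no source used here says where within these 331 bases it lies. That place matters, because the mouse annotation holds close copies of the RNA. A search of GENCODE M21 transcripts with the Rn7sk sequence found 240 other genes with a match, 232 of them small RNAs of the class misc_RNA and 0 on the panel. Of these, 11 matched at 90% identity or more over at least 200 bases. Gm24447 was identical to Rn7sk over bases 1 to 241, and Gm26315 matched bases 5 to 242 at 99.6%. The best matches of the 5 copies at 95% or more lay within bases 1 to 244, while that of Gm23037 spanned the whole length at 89.2%. Only the best match per gene was kept, so whether these 5 copies also match the 3′ part was not examined. Counts listed for Rn7sk are therefore uncertain as to their source among these copies.

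Libraries held 2756919 to 4990391 counts in abemaciclib tumours and 3044380 to 4492736 in control tumours. Rn7sk alone had 264859 to 751550 counts in abemaciclib tumours and 249010 to 893900 in control tumours. It ranked first in 23 of 23 tumours. The next most abundant gene was Mfge8 in 8 tumours, Actb in 8, Lcn2 in 3, Spp1 in 3 and Hspa8 in 1. Epcam, an epithelial surface marker, was well detected in both groups, at 1315 ± 187 CPM of the other genes in abemaciclib tumours and 1359 ± 312 in control tumours (SD, n = 12 and n = 11).

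The share of Rn7sk varied widely among tumours of the same group, and its difference between groups was within that spread. In abemaciclib tumours its lowest share was 6.49%, in tumour 12, the median 13.2% and the highest 16.4%, in tumour 1. In control tumours the lowest was 6.62%, in tumour 8, the median 12.4% and the highest 23.2%, in tumour 6. The groups overlapped almost completely, with 11 of 12 abemaciclib tumours inside the control range and 7 above the control median. The mean was 12.0 ± 3.54% in abemaciclib tumours and 13.0 ± 4.77% in control tumours (SD, n = 12 and n = 11), a difference of -0.917 percentage points (two-sided permutation test, p = 0.610). The 95% Wilson interval of any single share was at most 0.0845 percentage points wide, so counting error was far below the spread between tumours; such intervals cover counting error only, since no molecular identifiers are described for these amplicon reads.

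Because a library's largest gene lowers every other share, Rn7sk was next measured against the other genes alone, in CPM of the 3825 other genes (counts relative to the summed counts of those genes, after TMM scaling without Rn7sk), the scale of all levels given here. On this scale it was at 77480 in the lowest abemaciclib tumour, 151262 in the median and 234606 in the highest. In control tumours it was at 60467 in the lowest, 136778 in the median and 307655 in the highest. The range was thus 3.03-fold in abemaciclib tumours and 5.09-fold in control tumours, and 12 of 12 abemaciclib tumours lay inside the control range.

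In the comparison of abemaciclib with control, which asks what CDK4 and CDK6 inhibition does to transcripts of established tumours, Rn7sk did not pass. By edgeR's quasi-likelihood test over 2925 genes it had a log2 change of -0.00014 (SE 0.24), a fold of 1.00 with a 95% interval of 0.712 to 1.40, and an adjusted p of 1.00. With edgeR, 0 of 2925 genes, or 0.00%, passed an adjusted p of 0.05, while 392 had an unadjusted p under 0.05. Sample-weighted limma-voom called 127 genes, 4.34%, and DESeq2's Wald test 60, 2.05%, and Rn7sk was in neither set (adjusted p = 0.992 by DESeq2 and 0.880 by limma-voom). The sign of the fold change is undetermined: without control tumour 6 the value was 0.17 and without control tumour 8 it was -0.09. Scaling to housekeeping genes gave -0.29, where the median of all other genes was also -0.29.

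**Figure D1:**
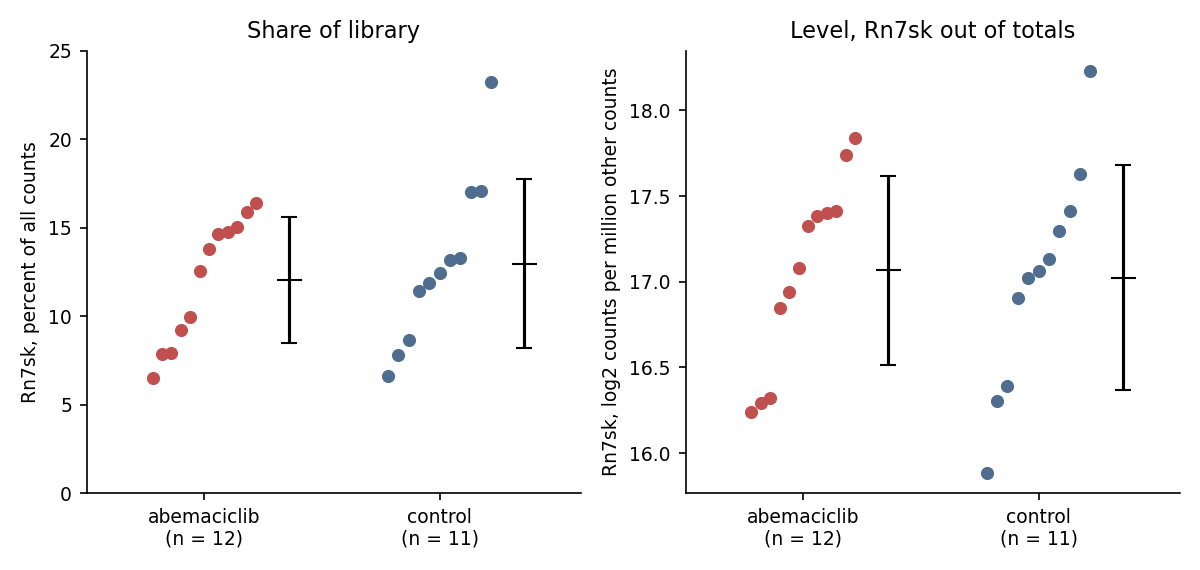
Rn7sk in 12 abemaciclib and 11 control tumours, as percent of all counts (left) and as log2 CPM of the other genes after TMM scaling (right). Points are tumours in ascending order within a group, and bars are the mean and SD; the groups overlap, with means of 12.0% in abemaciclib and 13.0% in control tumours.

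The spread between tumours did not differ detectably between groups. The mean absolute deviation from the group median, on the log2 ratio of Rn7sk to all other counts, was 0.44 in abemaciclib tumours and 0.45 in control tumours, a difference of -0.01 (two-sided permutation test, p = 0.955). The biological coefficient of variation that edgeR fitted to Rn7sk was 39.2%, against a median of 25.6% over the 2925 genes. The within-group SD of its log2 level was 0.60, above that of 81.0% of 2924 other genes and of 85 of the 100 most abundant ones, whose median was 0.31. Rn7sk therefore varied more than most abundant genes of the panel.

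Such a variable share moves the scale of every other gene. On plain library totals, counts of Rn7sk lowered the log2 CPM of other genes by between 0.10 and 0.38, so that the same gene could differ 1.22-fold between tumours through the total alone. Between groups this shift differed by 0.02 on the log2 scale. TMM factors computed with Rn7sk in the totals followed its log2 ratio to the other counts (r = -0.630 over 23 tumours, group means removed), and those computed without it followed it less (r = -0.230); both are descriptions. The number of genes called by edgeR with TMM was 0 with Rn7sk in the totals and 0 without it.

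Depth was compared with the log2 ratio of Rn7sk to the other counts, with group means removed, over 3 measures. With the log10 of the other counts r was -0.547 and rho -0.618, and r was -0.431 in abemaciclib and -0.689 in control tumours. The other counts are the denominator of that ratio, which builds in a negative relation, so these values are a description with no test. Raw log2 Rn7sk counts had an r of -0.184 with them, 0.0240 in abemaciclib and -0.443 in control tumours. The number of other genes detected after thinning each library to 2376378 other counts did not pass. Its r was -0.210 (permutation p = 0.336, adjusted p = 0.336) and its rho -0.0998 (permutation p = 0.651, adjusted p = 0.651). Without the farthest pair of tumours r was -0.287 (permutation test, adjusted p = 0.208). Adjusted p-values here are over the 3 measures. The share held by the 10 most abundant other genes had r = 0.382 and rho = 0.301, and r = 0.439 without its farthest pair of tumours. That share sums panel genes, and genes that follow Rn7sk were part of why it was chosen, so these values are a description with no test.

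For each of 2924 other genes above the filter on low counts, Pearson's r with Rn7sk was taken over the 23 tumours on log2 CPM of the other genes, with group means removed and Rn7sk left out of totals and scaling. All points share 1 panel, and Rn7sk and each gene share a tumour's scaling total. The median r over all genes was -0.00857, with 49.1% of genes positive. A value of 0.6 or more was reached by 175 genes, 5.98%, and one of -0.6 or less by 179 genes, 6.12%. Without control tumours 6 and 8, which had the highest and lowest Rn7sk, 183 genes were past 0.6 in size, of which 145 were among the 354 found with all tumours. With log10 depth also removed there were 316, of which 219 were among the 354. Both settings were added after seeing the data. Housekeeping scaling used the summed counts of the 9 housekeeping genes on the panel, of which Actb was the most abundant. Their summed level was lowest in control tumour 7, at 23848 CPM with Actb at 11262. It was highest in abemaciclib tumour 9, at 87106 with Actb at 68923, so this scale rests largely on Actb. Scaling sets the balance of signs: with housekeeping scaling the median r was 0.250 and 327 genes were at 0.6 or more against 5 at -0.6 or less. List medians under that scaling are therefore given beside this all-gene median.

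The 10 genes whose pattern was most like that of Rn7sk had r from 0.802 to 0.886. First was Itfg1 (chromosome 8, 85717578 to 85840921), with r = 0.886 and rho = 0.863, and r = 0.845 in abemaciclib and 0.919 in control tumours. Its level was 143 in the lowest, 197 in the median and 278 in the highest abemaciclib tumour, and 125, 194 and 296 CPM in control tumours. The groups overlapped, and over the 23 tumours Itfg1 was lowest in control tumour 8 and highest in control tumour 6, the tumours with the least and the most Rn7sk. Next came Gnas, the stimulatory G protein alpha subunit (chromosome 2, 174284320 to 174346744), at r = 0.868, with 1306, 1927 and 2413 in abemaciclib tumours and 1247, 1998 and 3280 in control tumours. Gnas too was lowest in control tumour 8 and highest in control tumour 6.

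The other 8 genes of this end were the mitochondrial adenylate kinase Ak3 (0.847), the 14-3-3 protein Ywhab (0.844), the HSP70 co-chaperone Bag1 (0.844), the glycolytic enzyme Aldoc (0.840), the E2F-associated phosphoprotein Eapp (0.832), the helicase Helz (0.824), the zinc finger factor Vezf1 (0.816) and the monoacylglycerol lipase Mgll (0.802). Without control tumours 6 and 8 the 10 values were 0.697 to 0.837, and with depth also removed 0.741 to 0.870. With abemaciclib over control, 0 of the 10 passed (lowest adjusted p = 0.648 by edgeR), where 0 of all 2925 genes did. Log2 fold changes of the 10 ran from -0.27 to 0.30.

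The 9 genes that ran most against Rn7sk had r from -0.918 to -0.837. Morc2a, a chromatin ATPase linked to gene silencing (chromosome 11, 3649191 to 3690477), had r = -0.918 and rho = -0.825, and r = -0.885 in abemaciclib and -0.946 in control tumours. Its level was 136 in the lowest, 180 in the median and 245 in the highest abemaciclib tumour, and 112, 174 and 276 in control tumours. Morc2a was lowest in control tumour 6, where Rn7sk was highest, and the groups overlapped. Dtx2, a ubiquitin ligase of the Deltex family (chromosome 5, 135994800 to 136032872), had r = -0.894, with 20.9, 25.8 and 38.3 in abemaciclib tumours and 19.3, 29.3 and 60.5 in control tumours. Dtx2 was lowest in control tumour 6 and highest in control tumour 8, the reverse of Rn7sk.

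The others at this end were the ribosome assembly factors Pes1 (-0.864) and Brix1 (-0.848), the Integrator subunit Ints3 (-0.863), the inflammatory caspase Casp1 (-0.853), the ESCRT-I subunit Tsg101 (-0.844), the nucleolar phosphoprotein Nolc1 (-0.842) and the DNA break response protein Trp53bp1 (-0.837). Without control tumours 6 and 8 the 9 values ran from -0.876 to -0.743, and with depth also removed from -0.898 to -0.766. With housekeeping scaling, where the median of all genes was 0.250, they were -0.363 to -0.212 and the 10 positive ones 0.794 to 0.900. With abemaciclib over control, 0 of the 9 passed (lowest adjusted p = 0.595 by edgeR), where 0 of all 2925 genes did.

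**Figure D2:**
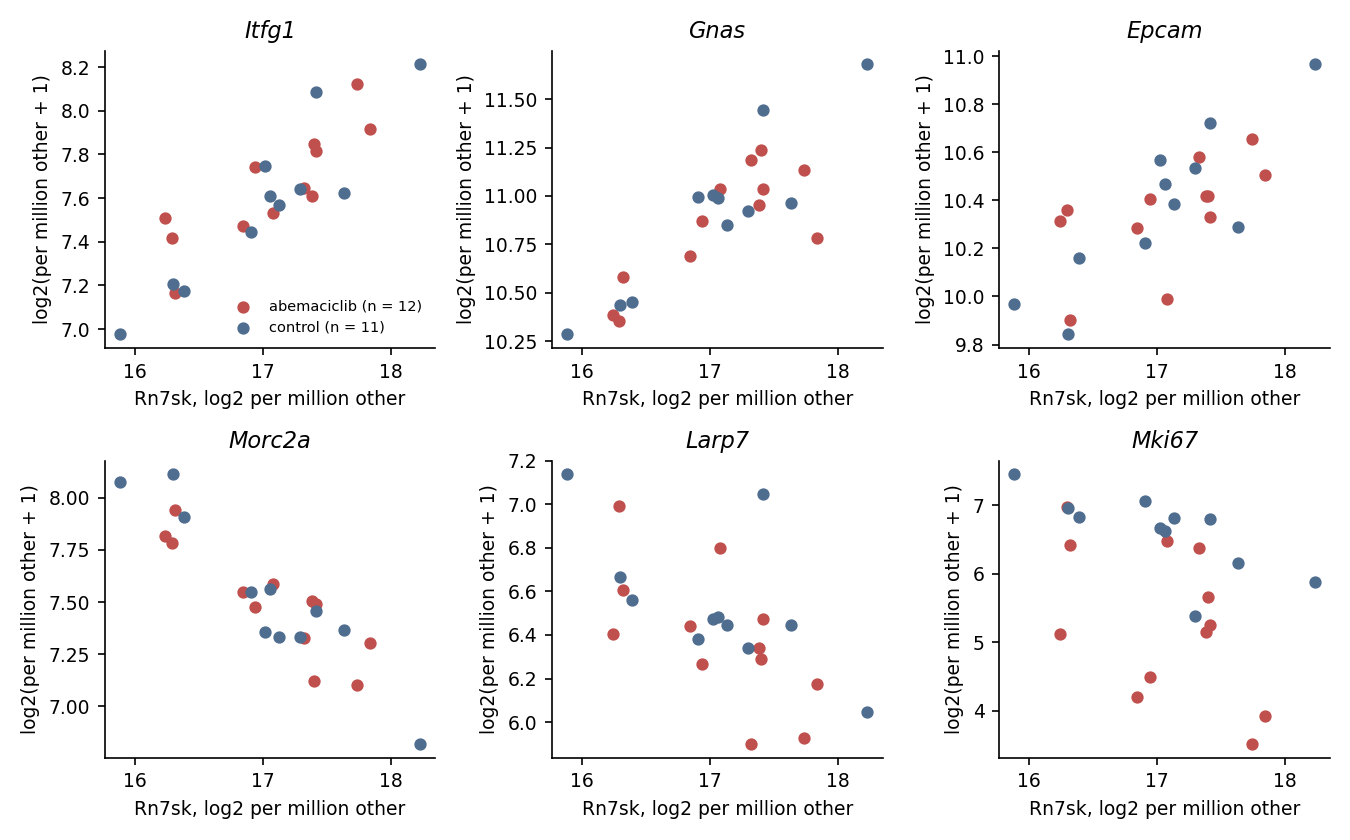
Levels of 6 genes (vertical, log2 of CPM of the other genes plus 1) against Rn7sk (horizontal, log2 CPM of the other genes) in 12 abemaciclib and 11 control tumours, each point a tumour. Itfg1, Gnas and Epcam are higher where Rn7sk is higher (r = 0.886, 0.868 and 0.754), and Morc2a, Larp7 and Mki67 are lower (r = -0.918, -0.637 and -0.555), with group means removed; Larp7 is at 0.0242 with housekeeping scaling, where the median of all genes is 0.250.

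The pattern was read in each group from genes chosen in the other. The 50 genes of highest r in control tumours had a median r of 0.485 in abemaciclib tumours, with 48 of 50 positive, against 50.1% of all genes. The 50 of lowest r in control tumours had a median of -0.563 in abemaciclib tumours, with 1 of 50 positive. Genes chosen in abemaciclib tumours had medians of 0.659 and -0.616 in control tumours, with 47 and 9 of 50 positive, against 49.0% of all genes. Across the 2924 genes, which are not independent of each other, the values of the 2 groups had a Pearson correlation of 0.605. The groups share no tumour, but they share the panel and the library design.

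**Figure D3:**
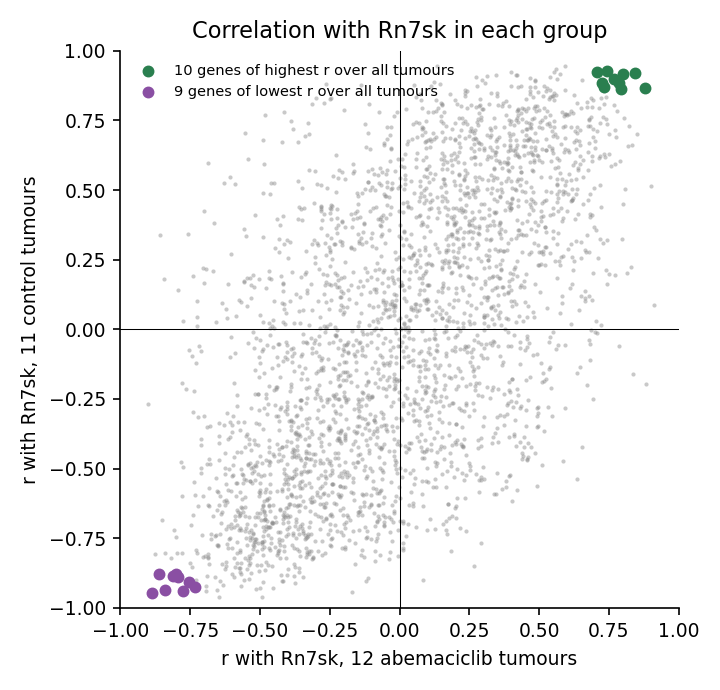
Pearson's r of each of 2924 genes with Rn7sk in the 12 abemaciclib tumours (horizontal) and the 11 control tumours (vertical), each point a gene. The 10 genes of highest and the 9 of lowest r over all tumours, which were chosen on the same values, lie in the upper right and lower left corners; across all genes the correlation is 0.605.

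Of the particle itself, the panel held Cdk9, its cyclin partners Ccnt1 and Ccnt2, and Larp7, but not the other proteins of the list, Hexim1, Hexim2 and Mepce. Ccnt1 had 0 or 1 count in every tumour and was not tested. The 3 tested genes all had a negative r with Rn7sk, with a median of -0.637, where 50.9% of all genes were negative. Larp7, which binds the 3′ end of 7SK in human cells (chromosome 3, 127536714 to 127553349), had r = -0.637 and rho = -0.601. It was at 58.6 in the lowest, 81.8 in the median and 126 in the highest abemaciclib tumour, and at 65.0, 88.0 and 140 CPM in control tumours. Larp7 was highest in control tumour 8, the tumour with the least Rn7sk, and its r was -0.470 without control tumours 6 and 8, where that of Cdk9 was -0.469.

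Cdk9, the kinase of P-TEFb (chromosome 2, 32705784 to 32713076), had r = -0.675 and rho = -0.588. Its level was 169 in the lowest, 212 in the median and 275 in the highest abemaciclib tumour, and 140, 213 and 265 in control tumours. Cdk9 was lowest in control tumour 6, with the most Rn7sk, and highest in abemaciclib tumour 12, with the least of its group; r was -0.890 in control and -0.347 in abemaciclib tumours, a difference that was not tested. Ccnt2, at 15 to 61 counts in abemaciclib and 25 to 79 in control tumours, had r = -0.287, or -0.190 without control tumour 8. Its r was near 0 in abemaciclib tumours, at -0.0558, and -0.479 in control tumours, a difference that was also not tested. With housekeeping scaling the median of the 3 genes turned to 0.0242, with Larp7 at 0.0242, Ccnt2 at 0.0559 and Cdk9 at -0.0767. Relative to the median of all genes, which that scaling moves to 0.250, the list median was -0.225, against -0.629 with TMM, so the list stayed below all genes under both.

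None of the 3 passed with abemaciclib by edgeR, which called 0 of all 2925 genes. By edgeR the log2 fold change of Cdk9 came to 0.02 (SE 0.09, adjusted p = 0.956), that of Larp7 to -0.16 (SE 0.13, adjusted p = 0.640) and that of Ccnt2 to -0.24 (SE 0.22, adjusted p = 0.663).

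Other proteins known to bind 7SK had a median r of -0.453 over 5 genes, 4 of them negative, where 50.9% of all genes were. The splicing regulator Hnrnpa1 was lowest at -0.750 and the splicing factor Srsf1 highest at 0.313. Factors of pause release and elongation had a median of -0.282 over 12 tested genes, 9 of them negative, from Ccnk, the cyclin of CDK12 and CDK13, at -0.690 to Aff4, the scaffold of the super elongation complex, at 0.615. In control tumours that median was -0.480 and in abemaciclib tumours -0.0910. With housekeeping scaling the medians were 0.00296 and 0.167, which is -0.247 and -0.0824 relative to all genes, against -0.444 and -0.273 with TMM. With depth removed Srsf1 was at 0.00892. Of the factors that transcribe small RNA genes, the panel held only Tbp, the TATA-binding protein, at r = 0.531. In the comparison of abemaciclib with control, 0 genes of these lists passed by edgeR, where 0 of all 2925 genes did.

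Genes of cell division ran against Rn7sk within groups. All 15 tested genes of the mitosis and proliferation list were negative, with a median of -0.555, and all 9 tested replication genes, with a median of -0.499. Over all genes 50.9% were negative, and genes of a list are not independent of each other. All tested genes of both lists were negative under each of the 4 scalings tried. Relative to all genes, the mitosis median was -0.635 with housekeeping scaling, against -0.546 with TMM. The replication median was -0.554 against -0.490 in the same order. The mitosis values ran from Ccna2, cyclin A, at -0.659 to the checkpoint kinase Bub1b at -0.462. Mki67, a marker of dividing cells, had r = -0.555, with r = -0.526 in abemaciclib and -0.730 in control tumours. It was at 10.4 in the lowest, 35.9 in the median and 125 in the highest abemaciclib tumour, and at 40.7, 111 and 175 in control tumours. Mki67 was highest in control tumour 8, the tumour with the least Rn7sk. Its log2 fold change with abemaciclib was -1.04 (SE 0.34, adjusted p = 0.150 by edgeR), with 1 of 12 abemaciclib tumours above the control median. Among replication genes the thymidylate synthase Tyms was lowest at -0.726 and Cdc45, part of the replicative helicase, highest at -0.137; Cdc45 was at -0.0240 without abemaciclib tumour 1. Of the drug's targets and their cyclin, Cdk4 had r = -0.259, or -0.162 without control tumour 8, Ccnd1, cyclin D1, had -0.340, and Cdk6 was near 0 at -0.0710, with a sign that turned without abemaciclib tumour 1, 3 or 10.

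Removing the mean of the mitosis list along with group means, an alternative added after seeing the data, left 390 genes past 0.6 in size, of which 179 were among the 354. The 10 positive genes then had r of 0.686 to 0.898 and the 9 negative ones -0.885 to -0.755.

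Markers of tissue compartments also moved with Rn7sk. The 8 tested endothelial markers were all positive with a median of 0.443, the highest being the angiopoietin receptor Tek at 0.708, and the 11 fibroblast markers were all positive with a median of 0.407, the highest being collagen gene Col3a1 at 0.537. Luminal epithelial markers were positive in 10 of 11, with a median of 0.431, from Epcam at 0.754 to Cdh1, E-cadherin, at -0.720. Over all genes 49.1% were positive and 50.9% negative. The 3 tested neutrophil markers were all negative with a median of -0.619, and the lowest was the receptor Csf3r at -0.708 and the highest S100a8 at -0.194; S100a8 was at -0.0884 without control tumour 5. With housekeeping scaling the neutrophil median was -0.279, which is -0.528 relative to all genes, against -0.610 with TMM. Relative to all genes, the medians with that scaling were 0.271 for endothelial, 0.202 for fibroblast and 0.284 for luminal markers. With TMM they were 0.451, 0.415 and 0.440. Summed levels of the endothelial list ran from 348 to 800 CPM in abemaciclib tumours and 444 to 938 in control tumours, those of the fibroblast list from 3815 to 28935 and 6165 to 14615, and those of the neutrophil list from 60.0 to 155 and 49.8 to 141. In bulk tissue, fewer cells of a type and less RNA per cell cannot be told apart, and the part of cell composition in the values of Rn7sk was not tested.

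**Figure D4:**
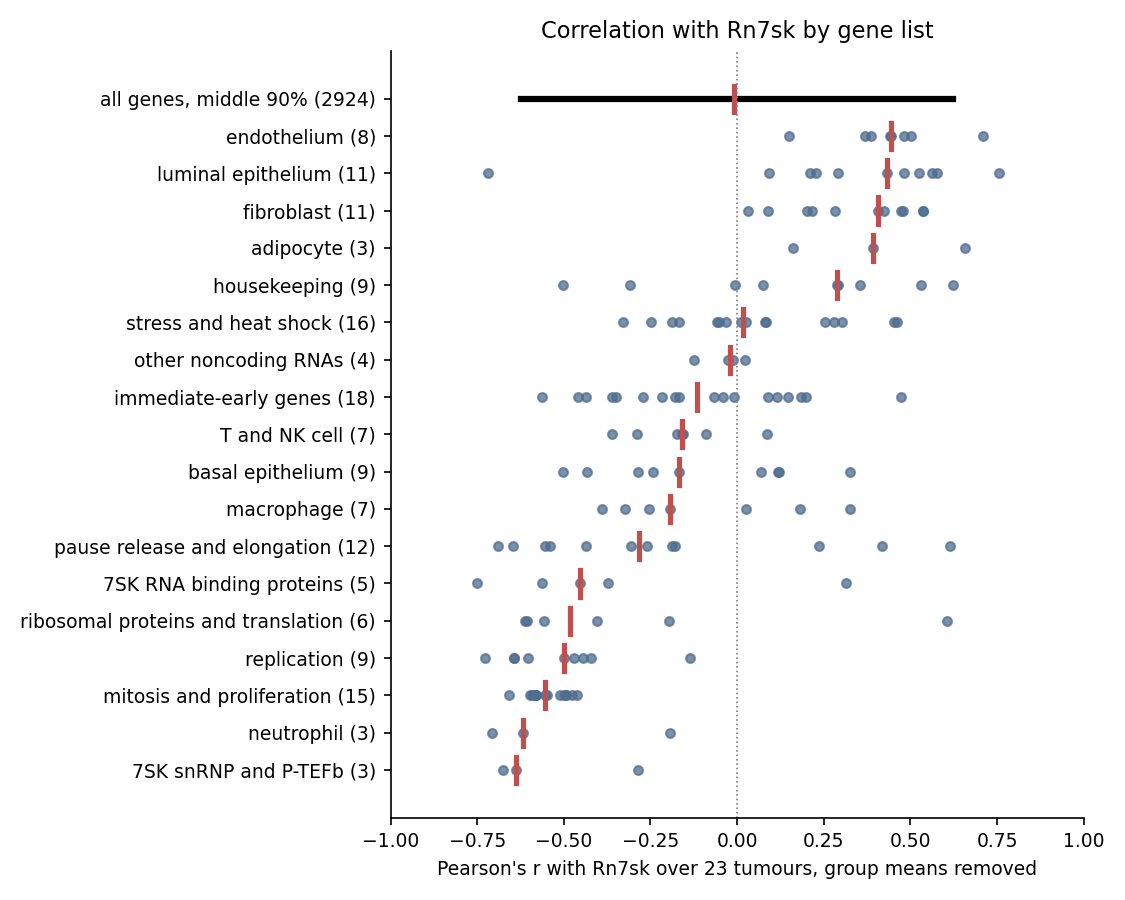
Pearson's r with Rn7sk over 23 tumours with group means removed (horizontal) for the members of each gene list with at least 3 tested genes (rows, number tested in brackets); points are genes and red bars medians, and the black line on top spans the middle 90% of all 2924 genes. Mitosis and replication genes lie left of 0 and endothelial and fibroblast markers right of it; the 7SK particle genes lie left of 0 here, but their median is 0.0242 with housekeeping scaling, where the median of all genes is 0.250.

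The lowest endothelial and fibroblast members were Pecam1 at 0.149, or 0.0164 without abemaciclib tumour 12, and Fn1 at 0.0312, which turned to -0.179 without that tumour. Pecam1 was at 0.594 in abemaciclib and -0.283 in control tumours. Adipocyte markers had a median of 0.393 over 3 genes, from Fabp4 at 0.162 to Lpl at 0.656. Basal epithelial markers had a median of -0.168 over 9 genes, from Krt14 at -0.502 to Myh11 at 0.324, macrophage markers -0.195 over 7, from Itgam at -0.391 to Fcgr3 at 0.324, and T and NK cell markers -0.159 over 7, from Cd3e at -0.360 to Cd4 at 0.0866. Single libraries weighed on these values. The basal median was -0.519 without control tumour 8, -0.0507 without abemaciclib tumour 10 and -0.0766 without abemaciclib tumour 3. The macrophage median was -0.0868 without control tumour 6, -0.0892 without abemaciclib tumour 12 and -0.124 without control tumour 5, and the T and NK cell median -0.271 without control tumour 8 and -0.101 without abemaciclib tumour 3. Cd4 turned to -0.346 without control tumour 8, Cd3e was at -0.118 without control tumour 6, and Myh11 was at 0.182 without control tumour 8 and 0.522 without abemaciclib tumour 12. With housekeeping scaling the basal, macrophage and T and NK cell medians lay at -0.179, -0.149 and -0.147 relative to all genes. The adipocyte median lay at 0.211 relative to all genes with that scaling, against 0.402 with TMM. The basal median was -0.505 in abemaciclib and 0.124 in control tumours. In the same order, medians were 0.643 and 0.291 for endothelial, 0.507 and 0.265 for fibroblast, and 0.284 and 0.645 for luminal markers. They were 0.467 and 0.297 for adipocyte, -0.0611 and -0.131 for macrophage, and -0.617 and -0.620 for neutrophil markers. T and NK cell markers had -0.417 and 0.0407, with Cd4 at -0.417 and 0.407. These differences between groups were not tested. With log10 depth removed, the medians were 0.238 for fibroblast, 0.421 for endothelial, 0.498 for luminal and 0.226 for adipocyte markers, where Fabp4 turned to -0.0504. They were -0.0163 for basal, 0.0524 for macrophage, -0.184 for T and NK cell and -0.524 for neutrophil markers.

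Other lists were read for comparison. Ribosomal and translation genes had a median of -0.481 over 6 genes, from Rps6 at -0.613 to Rpl5 at 0.604; relative to all genes it was -0.472 with TMM and -0.179 with housekeeping scaling. Immediate-early genes, short-lived transcripts of stimulated cells, had a median of -0.117 over 18 genes, from Ier3 at -0.563 to Klf2 at 0.472. Relative to all genes that median was -0.108 with TMM and -0.0886 with housekeeping scaling, and it was -0.0374 without control tumour 10 and -0.219 with depth removed. Klf2 was at 0.313 without control tumour 6 and 0.263 with depth removed. Stress and heat shock genes had a median of 0.0176 over 16 genes, from Ddit4 at -0.330 to Dnajb1 at 0.462, and the sign of that median turned without control tumour 1, 5 or 10. Dnajb1 was at 0.300 without control tumour 8 and Ddit4 at -0.497 without control tumour 6. Housekeeping genes had a median of 0.287 over 9, from Ywhaz at -0.503 to Gusb at 0.622, with 0.0705 in abemaciclib and 0.461 in control tumours. It was 0.124 without control tumour 6 and 0.133 without control tumour 8. Other noncoding RNAs had r between Snhg1 at -0.124 and H19 at 0.0220 over 4 tested genes, and both signs turned with 1 tumour left out, that of Snhg1 without control tumour 8 and that of H19 without any of 6 tumours. The abundant genes that followed Rn7sk in the libraries had r of 0.537 for the milk fat globule gene Mfge8, 0.567 for the lipocalin Lcn2, 0.597 for the osteopontin gene Spp1, 0.262 for Igfbp5 (0.155 without control tumour 8) and -0.00595 for Actb, whose sign was unsettled. For Mfge8, Lcn2 and Spp1 rho was 0.351, 0.408 and 0.390. Without control tumours 6 and 8 their r was 0.440, 0.383 and 0.324, and with the mean of the mitosis list removed 0.00692, 0.263 and 0.363.

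Neighbours on chromosome 9 were looked at next. Ick, 3196 bp away, had r = -0.0375, and the 3 other tested panel genes within 500 kb, Gclc, Mto1 and Slc17a5, had r of 0.366, 0.374 and 0.259. These 3 were at 0.583, 0.689 and 0.561 in abemaciclib tumours and 0.0954, 0.104 and -0.0708 in control tumours, and with depth removed at 0.0185, 0.282 and 0.0554. The median GC content of the annotated transcripts was 46.8% for the 50 genes of highest r and 49.4% for the 50 of lowest, against 50.4% over 2858 genes with a transcript. Across genes r had a Pearson correlation of -0.0195 with transcript GC, 0.106 with log2 transcript length and 0.0548 with mean level.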

How the data were processed

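RNA of 23 mouse mammary tumours was read with an Ion AmpliSeq custom panel, per the labels' protocols. The authors deposited raw counts per gene with no normalization; per the submitters' processing notes the genome build was mm10; the aligner and counter were not given in the sources used here. Each tumour is 1 sample, grouped and numbered by its title. No pair of libraries agreed within sampling noise (smallest chi-square per degree of freedom 19.1 over 253 pairs).

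Counts were tested in R 4.3.3 with edgeR 4.0.16 (filterByExpr, TMM, glmQLFit and glmQLFTest, Benjamini-Hochberg), which kept 2925 of 3826 genes. Permutation tests used 100000 resamples. For correlations, totals and TMM factors left out Rn7sk, log2 levels used a prior count of 2, and group means were removed. Gene properties came from GENCODE M21, in which 3750 panel symbols matched; copies were searched with blastn 2.17.0 in transcripts, since no genome sequence was used. The code of the fit and of the correlation was also run on simulated counts. Genes were drawn independently of each other there, so that run does not bear on the correlations reported here. Alternatives included DESeq2 1.42.0 and limma 3.58.1 (voom).

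Rn7sk and the gene lists were chosen with earlier results of these data known. Named genes are the 10 of highest and 10 of lowest r (1 of the 10 lowest is not reported here), all panel members of the 7SK particle list, the highest and lowest of every other list with at least 3 tested genes, the 5 most abundant genes after Rn7sk, and Mki67, Cdk4, Cdk6 and Ccnd1.

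The tumour numbers are shared by both groups but name no pairing, and 5 of 11 same-numbered pairs correlated above 0.1.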

Additional observations from a re-analysis of the deposited data

How the results depend on the processing

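The Rn7sk fold change stayed short of the threshold under every alternative and had no settled sign. On the log2 scale it was 0.0094 with DESeq2 size factors and 0.0094 by DESeq2's Wald test, 0.0010 with Rn7sk out of totals and factors, 1.76e-05 at a mean count of at least 50 and 0.085 by limma-voom. It was -0.0015 with no filter, -0.039 with upper-quartile factors and -0.29 with housekeeping scaling. With library totals alone it was -0.11, and -0.13 with Rn7sk left out of them. In the last 4 settings the median of all other genes was -0.030, -0.29, -0.12 and -0.13. The Rn7sk value was -0.088 to 0.17 with a tumour left out. With the tumour number as a replicate block it was 0.12, and edgeR called 0 genes; same-numbered pairs correlated from -0.429 to 0.454, and 2 of the abemaciclib tumours were closest to their own number. The share difference became 0.046 on log2 TMM-scaled CPM, and with a tumour left out ran from -1.55 to 0.111 percentage points, and the difference in spread from -0.078 to 0.056.

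Genes called between groups, 0 with edgeR and TMM, were 1 with library totals, 5 with library totals without Rn7sk (added after seeing the data), 10 with housekeeping scaling, 60 by the DESeq2 Wald test, and 127 by limma-voom with quality weights; with a tumour left out they were 0 to 47, the most without abemaciclib tumour 10, then 30 without abemaciclib tumour 2, 10 without abemaciclib tumour 3 and 9 without control tumour 6.

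Genes past 0.6 in size, 354, were 874 in the 11 control tumours alone and 312 in the 12 abemaciclib tumours alone. They were 240 by Spearman's rho, 240 without TMM, 183 without control tumours 6 and 8, and 242 to 455 with a tumour left out. For the 3 genes of the 7SK particle the median r was -0.347 in abemaciclib tumours alone, -0.480 without TMM, 0.0242 with housekeeping scaling, -0.419 with the mitosis list removed, -0.469 without control tumours 6 and 8, and -0.669 to -0.555 with a tumour left out. For the mitosis list it was -0.730 in control tumours alone, -0.416 without TMM and -0.385 with housekeeping scaling. Relative to all genes that last value was -0.635, against -0.546 with TMM. Once the list's own mean was removed its median was 0.0182, which leaves Mki67 at 0.0238 and Bub1b at 0.352 by construction. Medians of 7SK binding, elongation and ribosomal lists were 0.00296, 0.167 and 0.0702 with housekeeping scaling, which moves the median of all genes to 0.250, so that they and the 7SK particle list stayed below it. Depth removal, mitosis removal and leaving out control tumours 6 and 8 were added after seeing the data. The cause of the other changes was not tested. The search for copies in the genome itself was not run.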
